A study of Mus musculus with 6 samples.

Results

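The promoters and surroundings of 7 genes of antibody gene mutation and its repair were examined for 2 histone marks in germinal center (GC) B cells of the mouse. The genes were taken by name, Ung, Apex1, Msh6, Exo1, Polh, Rev1 and Trp53bp1, and are 7 of the 21851 protein-coding genes with a coding transcription start site (TSS) in the annotation used. Peaks of 6 Mint-ChIP libraries, 3 for trimethylated (H3K4me3) and 3 for monomethylated (H3K4me1) lysine 4 of histone H3, were assigned to each gene. Mint-ChIP is a barcoded chromatin immunoprecipitation for small cell numbers. Each library came from 50000 sorted spleen cells, 8 days after the mice were given sheep red blood cells. The labels give the genotype as WT, elsewhere in the study the name of Cγ1-cre mice without a floxed allele, and whether these mice carried that allele was not given in the sources used here, nor was their age in the labels. The labels call the cells GC Centrocytes, the methods call them GC B cells. No mutant or unstimulated cells were profiled, so the contrast available is between the marks, and whether the replicates came from separate mice was not stated. If they did not, the spread given here is technical.

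In GC B cells, activation-induced deaminase converts cytosine to uracil in antibody genes. Base excision repair removes the uracil: Ung encodes the uracil glycosylase and Apex1 the endonuclease that cuts the abasic site left behind. Mismatch repair recognizes the same lesion through Msh6, a subunit of the mismatch sensor, and Exo1, the exonuclease that resects the strand. Error-prone polymerases then fill in, among them polymerase eta (Polh) and the deoxycytidyl transferase Rev1, while the protein of Trp53bp1 protects broken ends during class switching. H3K4me3 is known to mark active promoters and H3K4me1 to mark enhancers and the flanks of promoters.

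Per library, 41936 to 46707 H3K4me3 peaks and 11922 to 24136 H3K4me1 peaks were deposited. Every contrast between the marks also contrasts calling modes, since H3K4me3 was deposited as broad and H3K4me1 as narrow peaks, with lowest −log10 q-values of 1.02 to 1.14 and of 1.31 to 1.32. One protocol field among the labels mentions an H3K27Ac antibody, whereas titles, antibody labels and the study's methods name the 2 marks used here. Read depth was not in the files, and the median H3K4me1 peak rested on 6 fragments at its summit in each library, as computed from its fold enrichment and p-value. An H3K4me3 peak lay over a coding TSS in 3 of 3 libraries for 6 of 6 B cell and 6 of 6 GC B cell marker genes, against 1 of 6 T cell markers (Lck), 0 of 6 myeloid, 0 of 4 erythroid and 0 of 6 markers of other tissues. Within 5 kb of a TSS the same counts were 6, 6, 2, 1, 3 and 1, so the broad window also took in peaks near genes of other lineages.

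All 7 genes carried H3K4me3 within 5 kb of a coding TSS, the distance used here for the promoter, in 3 of 3 libraries. The share over all protein-coding genes was 56.2%. The count was 5 among the 10000 best peaks of each library, where Msh6 and Trp53bp1 were lost, 6 at a −log10 q of at least 5, without Msh6, and 6 when a peak counted only for the gene with the nearest start, without Apex1. The share of all genes at these settings is not given here, and 56.2% does not apply to them. A coding TSS itself lay under H3K4me3 in 3 of 3 libraries for 4 of the 7, Ung, Apex1, Polh and Trp53bp1, against 38.5% of all genes. Msh6 and Exo1 had it in 2 of 3 libraries, replicate 2 being the exception for both. Rev1 had it in none. In bulk cells such as these, a mark carried by few cells and a weak mark carried by many cannot be told apart.

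**Figure D1:**
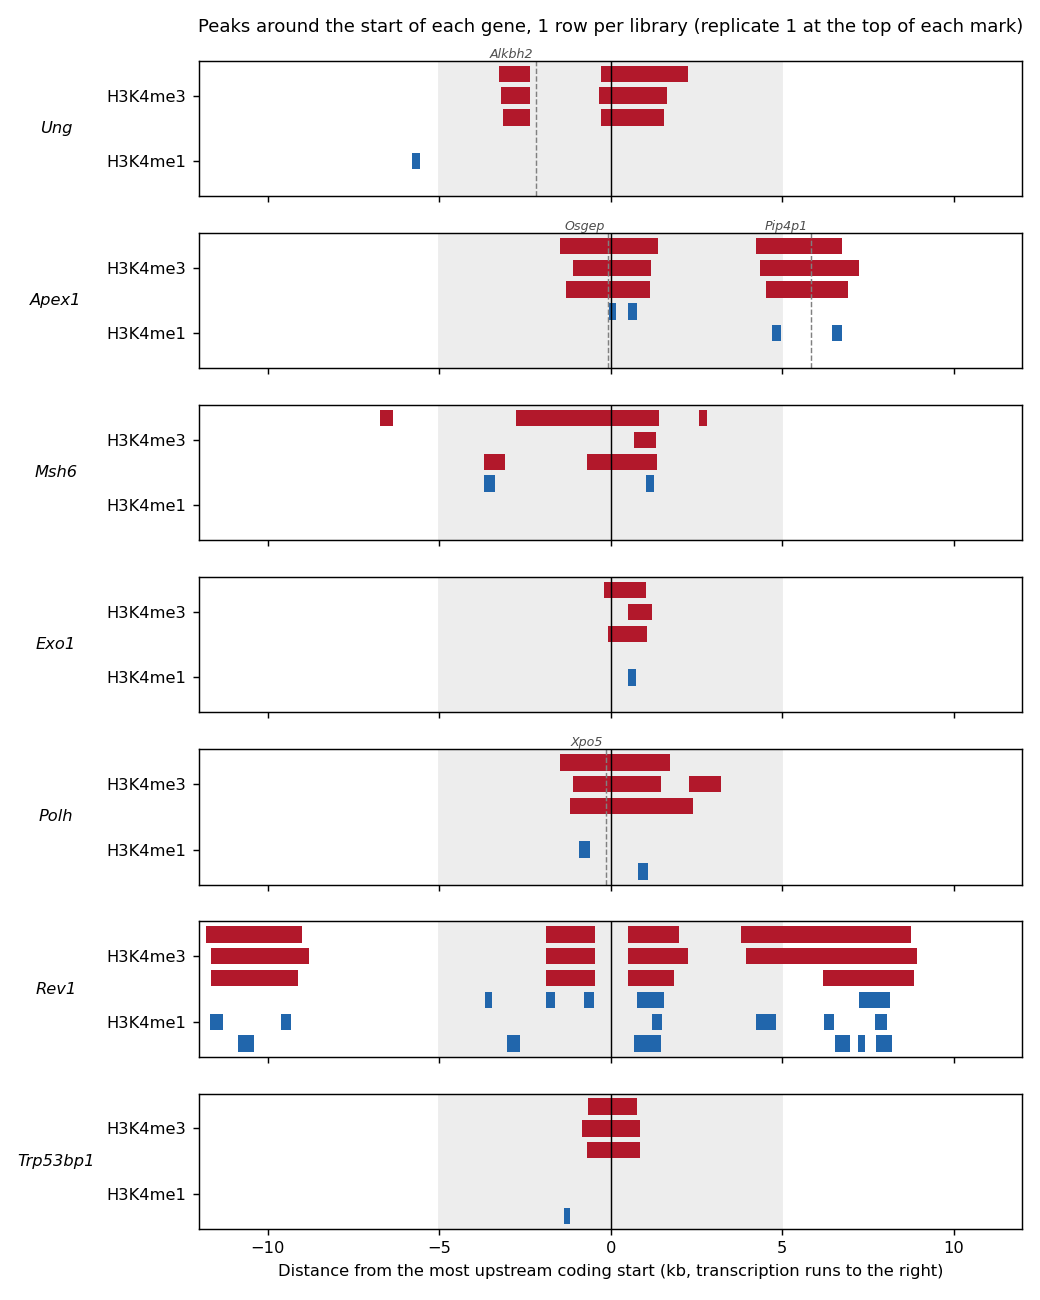
Peaks around the most upstream coding start of each gene, with distance in kb on the x axis and 1 row per library (red, H3K4me3, blue, H3K4me1, replicate 1 uppermost). The grey band spans 5 kb on either side, solid lines mark the gene's own start and dashed lines the starts of neighbouring coding genes. H3K4me3 covered the start of Ung, Apex1, Polh and Trp53bp1 in 3 of 3 libraries, and left the start of Rev1 uncovered in 3 of 3.

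The starts that these peaks surround differ in composition. RefSeq promoters of 300 bp (GRCm38.p6) matched 6 of the 7 genes by symbol, all but Exo1. Their GC content had a median of 68.2%, against 56.3% over 21238 protein-coding promoters, and their CpG observed over expected ratio a median of 0.998 against 0.567. Rev1 had the highest GC content, 83%, above 99.7% of all promoters, whereas Polh had the highest CpG ratio, 1.11. At the other end, Ung had a CpG ratio of 0.511 and Trp53bp1 a GC content of 57.3%, which stood at percentiles 46.2 and 52.3 of all promoters. The stretches just before the starts are shown, in the direction of transcription and on GRCm38, to let these differences be read. Each ends just before the earlier of the RefSeq start and the annotated coding start. That of Rev1 lies before its coding start but mostly within the annotated gene, which extends to 38129801. Capitals mark matches, on either strand, to the SP1 motif GGGCGG and the NFY motif CCAAT. For Apex1 (chr14:50924894-50924948, plus strand) and Polh (chr17:46202646-46202781, minus strand) the stretch begins next to the start of a divergent neighbour. For Ung (chr5:114130236-114130385, plus), Msh6 (chr17:87974900-87975049, plus), Rev1 (chr1:38129667-38129816, minus) and Trp53bp1 (chr2:121271408-121271557, minus) the stretch is 150 bases.
Ung: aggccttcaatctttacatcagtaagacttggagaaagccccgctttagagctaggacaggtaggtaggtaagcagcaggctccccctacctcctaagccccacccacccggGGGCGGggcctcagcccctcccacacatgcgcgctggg
Apex1: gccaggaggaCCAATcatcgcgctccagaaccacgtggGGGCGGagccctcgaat
Msh6: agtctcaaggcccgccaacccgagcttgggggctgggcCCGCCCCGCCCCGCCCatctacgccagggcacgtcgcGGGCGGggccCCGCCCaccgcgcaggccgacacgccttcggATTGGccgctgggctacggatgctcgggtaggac
Polh: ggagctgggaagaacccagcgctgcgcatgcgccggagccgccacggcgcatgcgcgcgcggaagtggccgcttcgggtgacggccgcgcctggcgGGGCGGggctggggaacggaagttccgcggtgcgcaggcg
Rev1: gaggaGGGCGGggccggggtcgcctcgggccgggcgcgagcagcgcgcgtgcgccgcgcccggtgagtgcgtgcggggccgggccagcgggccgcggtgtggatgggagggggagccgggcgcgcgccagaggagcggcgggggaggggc
Trp53bp1: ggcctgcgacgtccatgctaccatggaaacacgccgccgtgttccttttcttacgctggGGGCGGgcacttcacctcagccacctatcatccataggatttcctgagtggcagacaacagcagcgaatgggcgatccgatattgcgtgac

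GGGCGG occurred in 6 of the 6 promoters, at least once each and 5 times in Msh6, against 46.2% of all promoters of this length. CCAAT occurred in Apex1 and Msh6, 2 of 6, against 38.2%. The E2F motifs TTTCGCGC and TTTGGCGC, found in 0.452% and 0.636% of all promoters, the ETS motif CCGGAAG (11.6%) and the CRE motif TGACGTCA (2.24%) occurred in 0 of 6, which says only that these letters are not in these windows. A match is a string of letters and not evidence of a bound factor.

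Ung lies on chromosome 5 (114130386 to 114139323, plus strand) and has 3 coding TSSs. H3K4me3 at its start was 2520, 1982 and 1845 bp wide in replicates 1, 2 and 3. The part shared by the 3 libraries ran from 275 bp upstream to 1548 bp downstream, into intron 2. A second H3K4me3 region, shared from 3148 to 2353 bp upstream, lay 143 bp from the nearest annotated start of Alkbh2, a DNA demethylase gene transcribed in the opposite direction from 2168 bp upstream of Ung. The Alkbh2 region had the higher fold enrichment over local background, 9.36, 8.88 and 7.18, against 6.12, 5.05 and 5.80 at Ung, and the ranges did not overlap. Ung had no promoter H3K4me1 peak in any library, and none in its body.

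Apex1 (chromosome 14, 50924968 to 50927139, plus strand) starts 75 bp from the divergent start of Osgep, a tRNA modification gene. One H3K4me3 peak covered both starts, 2863, 2273 and 2453 bp wide, with a fold enrichment of 7.80, 9.18 and 8.24. The shared part spanned 1114 bp upstream to 1146 bp downstream. A further shared region from 4518 to 6754 bp downstream covered the start of Pip4p1 and counts as a promoter peak of Apex1 only because its edge falls inside 5 kb. Promoter H3K4me1 was called at Apex1 in replicate 1, with 2 peaks, and replicate 2, with 1, and in replicate 3 there was none. The peak of replicate 2 lay 4703 to 4960 bp downstream, under the H3K4me3 region at the Pip4p1 start. One peak of replicate 1 was 209 bp wide with 5 summit fragments. Of the 45 H3K4me1 peaks found around the 7 genes, it was the only one that covered a start of one of them.

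Msh6 (chromosome 17, 87975062 to 87990892, plus strand) had the least even H3K4me3 of the 7. Its start peak measured 4188, 641 and 2042 bp, and the window of 5 kb on each side of the start was covered to 44.4%, 6.41% and 26.6%. Fold enrichment was even and low, 4.56, 4.73 and 4.0. Replicate 2 held the narrow peak, from 681 to 1321 bp downstream in intron 1, which is also the only stretch that the 3 libraries shared. Promoter H3K4me1 was called in replicate 1 alone, at 3494 bp upstream and 1140 bp downstream. One further H3K4me1 peak lay 25911 bp upstream, in replicate 3.

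Exo1 (chromosome 1, 175880581 to 175913489, plus strand) had the narrowest peak, 1239, 705 and 1129 bp, at a high fold enrichment of 9.39, 6.89 and 9.26. As at Msh6, replicate 2 had the narrowest and the only one that missed the start, and the shared part lay from 503 to 1030 bp downstream. The nearest other coding start was 39748 bp away for Exo1 and more than 50 kb away for Msh6, and these 2 genes had the fewest H3K4me3 peaks between 5 and 50 kb, 0, 1 and 0 for Exo1 and 1, 0 and 1 for Msh6. Its single H3K4me1 peak, in replicate 2, had its summit 607 bp downstream in exon 2 on 7 fragments.

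Polh (chromosome 17, 46171355 to 46202645, minus strand) shares its promoter with Xpo5, a nuclear export receptor gene that starts 137 bp away in the opposite direction. The peak over both starts was 3193, 2561 and 3579 bp wide with a fold enrichment of 9.90, 7.85 and 6.89. The shared part ran from 1103 bp upstream to 1457 bp downstream. H3K4me1 was called on either side in different libraries, at 637 bp upstream in replicate 2 and 819 bp downstream in replicate 3, with 6 fragments at each summit. Of the 7 genes, 2 had a divergent coding start within 1 kb, Apex1 and Polh, as had 9.0% of all genes.

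Trp53bp1 (chromosome 2, 121193281 to 121271407, minus strand) had the most even of the peaks that covered a start, 1443, 1685 and 1551 bp, and covered 14.3%, 16.7% and 15.4% of the promoter window. Fold enrichment was 8.79, 5.13 and 7.41. The shared part lay from 677 bp upstream to 765 bp downstream, and a second shared region lay 57.8 to 58.4 kb downstream in intron 17. H3K4me1 appeared once in the promoter, 1325 bp upstream in replicate 3, and once in the body, in exon 21 in replicate 1.

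Rev1 (chromosome 1, 38052786 to 38129801, minus strand) differed from the other 6 in layout. Its H3K4me3 flanked the coding TSS at 38129662 without covering it. The upstream peak measured 1434, 1425 and 1409 bp and the downstream one 1480, 1732 and 1316 bp, and the bases between them without a peak numbered 966, 966 and 986. The upstream peak lay 454, 454 and 472 bp from the Rev1 coding start. It lay 534, 543 and 541 bp from the nearest start of Gm5099, a lincRNA gene, so it cannot be assigned to Rev1 alone. The gap had a GC content of 80.3% to 80.6% with 0 unknown bases in the assembly. Whether base composition had a part in the absence of a peak there was not tested. Of the 12273 genes with promoter H3K4me3 in 3 of 3 libraries, 547 (4.46%) had the same layout, peaks on both sides of a coding TSS and none over one. The layout depends on how peaks are joined. With peaks up to 1 kb apart merged, genes of the 7 with a covered start in 3 of 3 libraries rose from 4 to 5. The gene added was Rev1, each of its gaps being shorter than 1 kb. The share of all genes after merging is not given here.

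Rev1 intron 1 held a further wide H3K4me3 domain. It measured 4973, 4992 and 2674 bp, and the part shared by the 3 libraries lay 6.18 to 8.76 kb downstream of the start. Upstream, shared regions lay at 9.12 to 11.6 kb, 20.1 to 20.2 kb and 26.0 to 27.2 kb from the start. The nearest annotated start to each of these, Rev1 excepted, was that of the lincRNA Gm5099, and no other coding gene starts within 50 kb of Rev1.

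Rev1 held most of the H3K4me1 at the 7 genes. Of 45 H3K4me1 peaks assigned to the 7 genes, Rev1 had 26, which were 10, 7 and 9 in the libraries, and the other 6 genes together 19. A promoter peak of H3K4me1 was found in all 3 libraries for 1 gene of the 7, Rev1, against 6.17% of all genes, and in at least 1 library at 6 of the 7, all but Ung, against 35.7%. Leaving out H3K4me1 replicate 1 or replicate 3 raised the first count to 2, through Polh and Apex1 in turn. For Apex1 this rests on the replicate 2 peak near the Pip4p1 start. In the gene body beyond 5 kb of a TSS, Rev1 was the only one with H3K4me1 in all 3 libraries, against 6.65% of all genes.

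**Figure D2:**
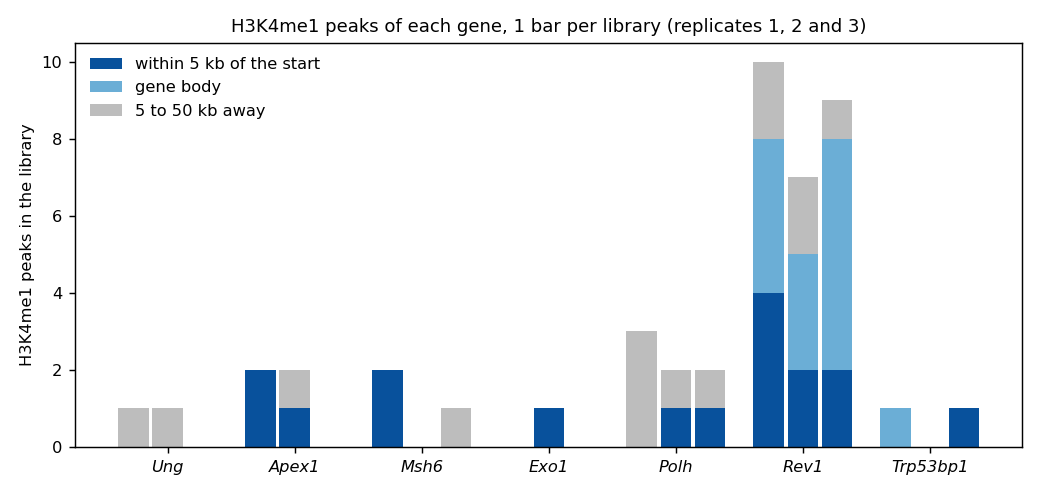
H3K4me1 peaks (y axis, number in the library) assigned to each gene, 1 bar per library, split into the promoter, the gene body and the surroundings to 50 kb. Rev1 had 10, 7 and 9 peaks, and no other gene had more than 3 in a library.

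Trp53bp1 is as long as Rev1, 78.1 against 77.0 kb, and had 1, 0 and 0 body peaks of H3K4me1 where Rev1 had 4, 3 and 6. Among 2501 genes of 50 to 100 kb, 17.8% had body H3K4me1 in 3 of 3 libraries and 49.7% in none. Both long genes had body H3K4me3 in 3 of 3 libraries, the only 2 of the 7 to do so, against 19.3% of all genes and 42.4% of genes of 50 to 100 kb. At Rev1 these body peaks did not overlap one another. They lay at 18376 to 19547, 19659 to 19857 and 6180 to 8853 bp downstream of the start in replicates 1, 2 and 3. The last belongs to the wide intronic H3K4me3 domain, which counted as promoter in replicates 1 and 2. At Trp53bp1 a body peak of each library overlapped those of the other libraries.

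At 2 places, both in Rev1 intron 1 and both under H3K4me3 in 3 of 3 libraries, H3K4me1 of the 3 libraries coincided. The first lay 1204 to 1456 bp downstream of the start. The peaks there had 8, 4 and 10 fragments at the summit in replicates 1, 2 and 3 and a fold enrichment of 6.32, 3.75 and 8.04, replicate 2 being the lowest on both. The second lay 7724 to 8052 bp downstream, within the wide H3K4me3 domain, with 11, 9 and 9 fragments and a fold enrichment of 8.42, 7.50 and 6.84. These were the only sites around the 7 genes called for H3K4me1 in all of its libraries, and their sequences are therefore shown, on GRCm38 and in the direction of Rev1 transcription, the first whole (chr1:38128206-38128458) and the second as its central 300 bases (chr1:38121624-38121923). Capitals again mark GGGCGG or CCAAT.
Rev1 intronic site 1: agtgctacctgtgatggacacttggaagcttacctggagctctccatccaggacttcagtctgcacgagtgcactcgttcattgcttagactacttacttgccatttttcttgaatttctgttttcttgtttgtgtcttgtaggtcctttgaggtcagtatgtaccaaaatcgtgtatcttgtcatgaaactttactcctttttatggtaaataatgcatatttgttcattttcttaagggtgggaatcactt
Rev1 intronic site 2: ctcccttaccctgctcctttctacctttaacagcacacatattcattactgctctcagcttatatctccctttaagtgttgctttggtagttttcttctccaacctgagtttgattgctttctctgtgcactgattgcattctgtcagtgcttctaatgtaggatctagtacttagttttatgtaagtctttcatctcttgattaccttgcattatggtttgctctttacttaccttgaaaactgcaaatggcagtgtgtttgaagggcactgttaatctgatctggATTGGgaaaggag

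Both were poor in CpG, with 3 and 0 CpG dinucleotides and a GC content of 39.5% and 39.7%. The 150 bases shown before the Rev1 coding start held 26 and 85.3%. GGGCGG occurred in neither intronic site and CCAAT once, in the second.

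Elsewhere the H3K4me1 calls rarely recurred. Of Rev1's 26 peaks, 9 overlapped a peak of another H3K4me1 library, and of the 19 peaks of the other 6 genes 2 did, both near the start of Gtpbp2, between 38961 and 39642 bp downstream of the Polh start. Of all 45 peaks, 34 overlapped H3K4me3 in at least 1 library and 29 in 3 of 3. Their summits rested on 4 to 11 fragments, a depth at which a missing call does not show a missing mark. Conversely, of 27 H3K4me3 regions shared by 3 libraries, 14 met H3K4me1 in at least 1 library: 5 of 6 at Rev1, 4 of 5 at Polh, 2 of 7 at Apex1, 1 of 4 at Ung, the single one at Msh6 and at Exo1, and 0 of 3 at Trp53bp1. The shares over all peaks of the libraries are not given here. Neither the recurrence nor the overlap is therefore shown to be particular to these genes.

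The height and width of H3K4me3 at the start gave the 7 genes a different order. By width of the peak nearest the start, means over the 3 libraries were 3111 ± 514 bp (SD) for Polh, 2530 ± 302 for Apex1, 2290 ± 1786 for Msh6, 2116 ± 357 for Ung, 1560 ± 121 for Trp53bp1, 1423 ± 12.7 for Rev1 and 1024 ± 282 for Exo1. For Rev1 the peak ranked is the upstream one, which covers no Rev1 start and also lies near a start of Gm5099. The ranges of neighbours overlapped from Polh down to Ung, and did not between Ung and Trp53bp1, Trp53bp1 and Rev1, or Rev1 and Exo1. The members' median was 2116 bp against 1804 bp over the 12273 genes with such a peak.

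By fold enrichment of the same peak, the order ran from Exo1, 8.52 ± 1.41, through Apex1, 8.41 ± 0.703, Polh, 8.22 ± 1.54, Trp53bp1, 7.11 ± 1.85, Rev1, 6.80 ± 1.15, and Ung, 5.66 ± 0.548, to Msh6, 4.43 ± 0.385. Only Ung and Msh6, at the lower end, were neighbours without overlap. Exo1 thus stood at percentile 91.5 of all such genes for fold enrichment and 17.3 for width, and Msh6 at 12.2 for fold enrichment and 70.3 for width. Polh and Apex1 were high on both, at percentiles 88.9 and 90.6 for fold enrichment and 87.5 and 77.3 for width. Fold enrichment in a broad list is an average over the peak, and a peak over a shared promoter cannot be divided between its genes.

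**Figure D3:**
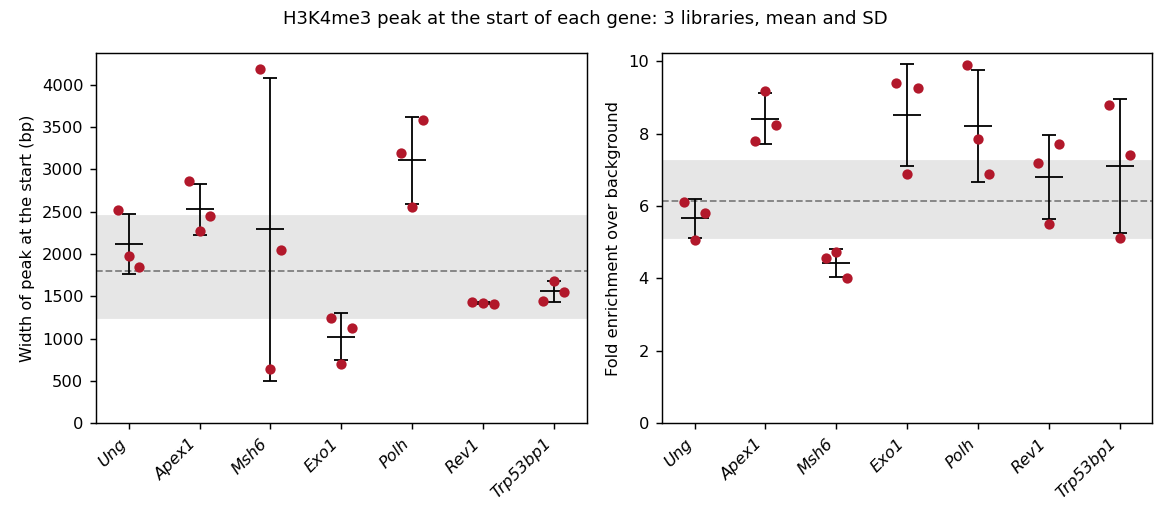
Width in bp (left) and fold enrichment over local background (right) of the H3K4me3 peak nearest the start of each gene, with points for the 3 libraries, bars for mean and SD, and the quartiles and median of 12273 genes as grey band and dashed line. Msh6 spread from 641 to 4188 bp in width while its fold enrichment stayed between 4.0 and 4.73.

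Set side by side, H3K4me3 exceeded H3K4me1 at the promoters of these genes in each library. The number of the 7 genes with a promoter peak was 7, 7 and 7 for H3K4me3 and 3, 4 and 3 for H3K4me1, a difference of 3.67. The mean share of the promoter window under peaks was 30%, 23.0% and 24.1% for H3K4me3 and 3.71%, 2.41% and 2.34% for H3K4me1, a difference of 22.9 percentage points. In the surroundings, 5 to 50 kb from a TSS and outside the gene, there were 19, 19 and 25 against 6, 5 and 3 peaks, a difference of 16.3. The marks did not overlap on any of these 3 measures. Each reached p = 0.1 in the two-sided exact permutation test over 20 assignments, the smallest value that 3 against 3 libraries can give. Taken whole, the H3K4me3 lists covered 60.2, 49.4 and 50.7 Mb and the H3K4me1 lists 7.91, 4.35 and 3.53 Mb. The direction at these genes was thus also that of the whole lists, and is not shown to be particular to them.

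Gene bodies went the other way in number. They held 2, 2 and 3 H3K4me3 against 5, 3 and 6 H3K4me1 peaks, a difference of −2.33 that overlapped between the marks (exact permutation p = 0.2). Of these H3K4me1 peaks 4, 3 and 6 were Rev1's, and of the H3K4me3 peaks 1, 1 and 1. These numbers also depend on the classes and on peak width. The intronic H3K4me3 domain of Rev1 counted as promoter in replicates 1 and 2, its near edge lying 3783 and 3928 bp downstream. H3K4me1 peaks under it but farther than 5 kb from the start counted as body. In replicate 3 several narrow H3K4me1 peaks lay under 1 broad H3K4me3 peak. Without Rev1 the direction turned round, with 1, 1 and 2 H3K4me3 against 1, 0 and 0 H3K4me1 peaks, so the lower number for H3K4me3 rests on that gene. Over the 4 contrasts, Benjamini-Hochberg adjusted p-values were 0.133, 0.133, 0.133 and, for gene bodies, 0.2, and no contrast could pass 0.05.

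**Figure D4:**
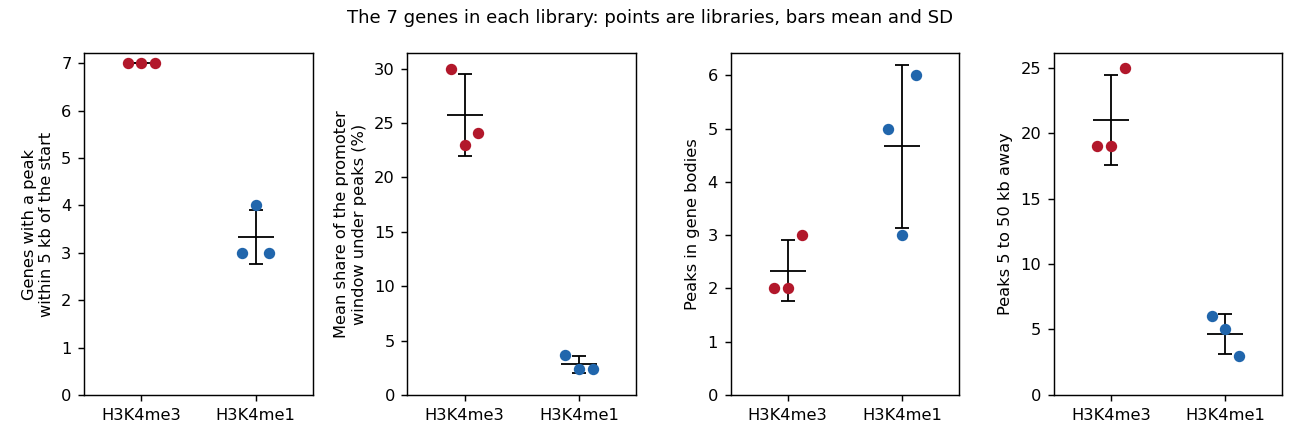
The 4 contrasts between marks over the 7 genes, with the number of genes, percent of window or number of peaks on the y axes, points for libraries and bars for mean and SD. The marks are apart in the panels for promoters, window coverage and surroundings, and meet at 3 peaks in the panel for gene bodies.

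Part of the peaks in the surroundings lay near the starts of neighbours. H3K4me3 lay 5 to 50 kb away in 3 of 3 libraries at 5 of the 7 genes, Ung, Apex1, Polh, Rev1 and Trp53bp1, against 60.3% of all genes, and H3K4me1 at 2, Polh and Rev1, against 20.4%. Of 63 such H3K4me3 peaks 33 (52.4%) lay within 5 kb of another coding TSS, and of 14 H3K4me1 peaks 8 (57.1%) did. All those of Polh did, at Gtpbp2, Mad2l1bp, Polr1c and Yipf3, and none of those of Rev1. Peaks were counted in each library, so a region found in 3 libraries counts 3 times. The same share over all genes is not given here.

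Other genes of the same pathways were read for comparison, 61 of 62 listed being matched by symbol. H3K4me3 lay in the promoter in 3 of 3 libraries at 60 of the 61, against 56.2% of all genes. It lay over a coding TSS in 3 of 3 libraries at 51, against 38.5%. The exception in the promoter count was Nhej1, the end-joining factor XLF, with 0 of 3 libraries. By pathway the promoter counts were 14 of 14 for base excision, 15 of 15 for mismatch repair, 11 of 11 for translesion synthesis and 20 of 21 for end joining and the Trp53bp1 pathway.

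Promoter H3K4me1 in 3 of 3 libraries was found at 5 of the 61, against 6.17% of all genes. Among them were Mbd4, a thymine glycosylase, Rpa1, which binds single-stranded DNA, and Xrcc6, the Ku70 subunit. The others were H2afx, the histone variant phosphorylated at breaks, and Mdc1, which binds that variant. Each of the 5 also had H3K4me3 over its start in 3 of 3 libraries, unlike Rev1. Promoter H3K4me1 in at least 1 library was found at 37 of the 61, against 35.7% of all genes. The widest promoter H3K4me3 peaks were those of Poli, a translesion polymerase (10037, 4460 and 7791 bp), Mbd4 (7037, 7097 and 7192 bp) and Mdc1 (6366, 2625 and 6659 bp). The widest of the 7, Rev1, had 4973, 4992 and 1409 bp in its promoter. The value of 1409 bp is that of the peak beside the start, because in replicate 3 the intronic domain began 6180 bp downstream and no longer counted as promoter.

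**Figure D5:**
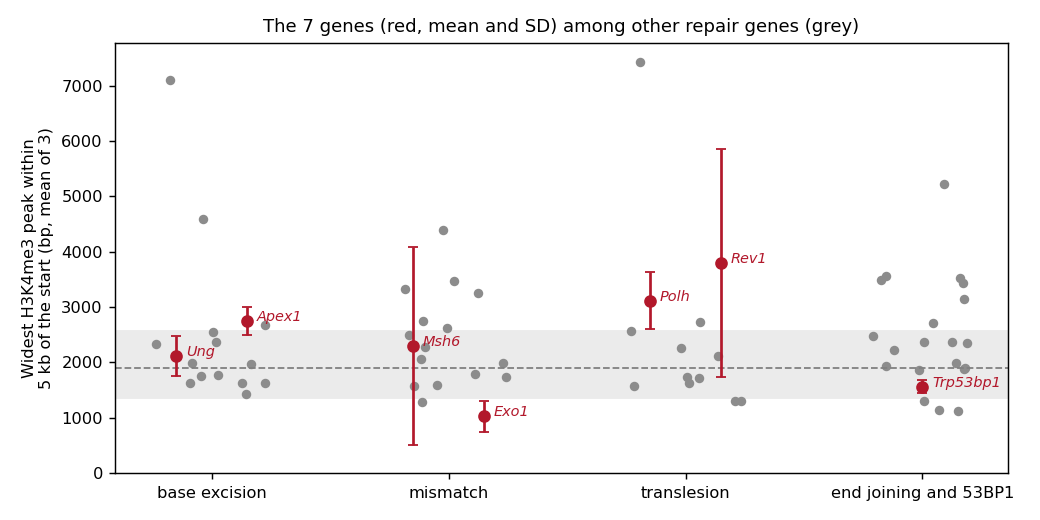
Widest H3K4me3 peak within 5 kb of the start (y axis, bp, mean of 3 libraries) for the 7 genes in red, with SD, and other repair genes in grey, by pathway. The band and dashed line are quartiles and median of 12273 genes (1358, 2556 and 1902 bp), and Exo1 lies under the band while Rev1, Polh and Apex1 lie over it.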

How the data were processed

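Peak lists of 3 H3K4me3 and 3 H3K4me1 libraries were used as the authors deposited them, called per library. The submitters' processing notes name BWA, Picard, HOMER, Genrich and mm10, without roles. The layout is that of MACS2, with settings not given in the sources used here. The deposited fold enrichment sets fragment pileup against local background as a linear ratio, and the deposited −log10 p-values and −log10 q-values belong to the same comparison. The deposited score column was left aside. The depth is unknown. Whole summit fragments followed from fold and p-value (tolerance 0.0005 in −log10 p) for 100% of H3K4me1 and 5.90% to 6.19% of H3K4me3 peaks.

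TSSs were the 41438 of coding transcripts in GENCODE vM21 basic (GRCm38). A peak was promoter within 5 kb of a TSS of the gene (overlap of 1 bp), otherwise body, otherwise outlying up to 50 kb. Marks were compared over libraries with two-sided exact permutation tests. Every member was described, and of the other repair genes those without promoter H3K4me3 or with promoter H3K4me1 in 3 of 3 libraries and the 3 with the widest peak. Neighbours starting within 5 kb of a member were named by rule, and farther ones, the gap at Rev1 and the length class after values were seen. Members and lists were chosen with earlier results of these data known. Alternatives changed distance, TSS set, peak position, ownership, threshold and merging, and left out libraries. Scripts, tested on simulated peaks, used Python 3.11.15, pandas 2.3.3, SciPy 1.17.1, pysam 0.24.0 and samtools 1.23.1.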

Additional observations from a re-analysis of the deposited data

How the results depend on the processing

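The differences between marks kept their direction under every alternative run for them except 1 chosen after seeing the data, the difference in body peaks turning to 1 with Rev1 left out. Leaving out 1 library gave 3.50 to 4 for genes with a promoter peak, 20.7 to 24.2 percentage points for window coverage, −3.17 to −1.67 for body peaks and 14.3 to 17.3 for outlying peaks. With the replicate number as a block the differences were 3.67, 22.9, −2.33 and 16.3 as before, each with a sign-flip p of 0.25, the smallest that 3 pairs can give. Deviations of same-numbered libraries of the 2 marks correlated at −0.027, −0.010 and −0.002, and those of differently numbered ones at −0.013 to 0.023. These correlations cannot show whether same-numbered libraries were paired, since the marks differ and H3K4me1 calls rest on few fragments. Of the 7 genes, those with promoter H3K4me3 in 3 of 3 libraries fell to 5 among the 10000 best peaks per library, and to 6 at the stricter q and with nearest gene ownership. The number of the 7 genes with promoter H3K4me1 in 3 of 3 libraries fell from 1 to 0 within 1 kb, and was 1 to 2 with a library left out. Those with a covered start fell from 4 to 2 among the 10000 best peaks per library, and were 4 to 6 with a library left out. They were 3 at the stricter q and with nearest gene ownership, and 5, with Rev1 added, when peaks up to 1 kb apart were merged. Of the 61 other repair genes, promoter H3K4me3 fell from 60 to 36 among the best peaks, to 48 at the stricter q and to 47 with nearest gene ownership. Their promoter H3K4me1 count of 5 became 1 within 1 kb, 2 within 2.5 kb, 0 at a −log10 q of at least 5, 2 among the best peaks and 7 to 13 with a library left out. The cause of these shifts was not tested, beyond the fewer peaks that each stricter setting leaves. Shares of all genes at these settings are not given here. The mean widest promoter peak of Rev1, 3791 bp, became 1540 bp within 1 or 2.5 kb or by peak midpoint, since its intronic domain then fell outside. The median CpG ratio was 0.901 in 1000 bp windows. Of 190 alternative values 171 stayed within the limits set for them. Differences between marks had only to keep their sign, counts to stay within a set ratio and widths within the SD over libraries. The differences with the replicate block could not change, so the tally is no measure of robustness. Peaks resting on few fragments limit every statement of absence for H3K4me1.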
